A study of Rattus norvegicus with 12 samples.

Results

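The fibrillar collagen chains Col1a1, Col3a1, Col5a1 and Col5a2, the beaded-filament chain Col6a1, the fibril-associated chain Col12a1 and the glycoproteins Postn, Fn1 and Tnc were followed in cultured rat nucleus pulposus cells. They are the genes of fibrous connective tissue. Of 10 names asked for, 9 matched the gene name column of the deposited table, out of 21071 genes, and all 9 passed the filter on low counts. The tenth, Col1a2, was found by its description on 2 rows (ENSRNOG00000011292 and ENSRNOG00000052925). Its values are given with the 2 rows added, and it is not counted among the 9.

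Collagen I is built from Col1a1 and Col1a2 chains, and with collagen III it forms the banded fibrils of tendon, skin and the outer disc. Collagen V sits inside these fibrils and starts their assembly, collagen XII binds their surface, and collagen VI forms fine filaments around cells. Fibronectin is laid down by cells through integrins and serves as a template for collagen deposition, while periostin and tenascin C are matricellular proteins typical of repair and mechanical load. A healthy nucleus pulposus is rich in aggrecan and collagen II, and fibrous collagens mark its fibrotic change.

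Nucleus pulposus cells were grown in DMEM/F12 medium with serum and given exosomes at 50 µg/mL. The exosomes of 1 kind were shed by progenitor cells of the nucleus pulposus (NPPC-Exo). Those of the other came from progenitor cells that overexpressed miR-221-3p (miR-Exo). Each kind was given without erastin and with it. Erastin, which blocks cystine import and induces the iron-dependent cell death called ferroptosis, was used for 48 h at 0.1 to 5 µM, and the dose behind each library is not given. There were 3 libraries in each of the 4 groups, all of which received exosomes, so no comparison here is with cells lacking them. No label ties the 3 libraries to separate cultures or rats. The p-values therefore cover only the spread among libraries, which may be technical. The microRNA is shown because it is the one thing said to separate the 2 kinds of exosome. Its mature sequence in RefSeq (GRCr8, chrX:6023246-6023268, plus strand) has the seed, bases 2 to 8, in capitals.
rno-miR-221-3p: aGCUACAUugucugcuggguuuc

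Libraries held 54616827 to 68865720 counts. Of the 17 names listed as nucleus pulposus and notochord markers, 10 were in the table. The other 7, among them Tbxt, Krt19, Foxf2 and Shh, were not analysed here. Some of the 17 were alternative names of the same gene, such as Ca3 and Car3. The 10 summed to 159 to 174 CPM with NPPC-Exo. CPM are counts scaled to library totals after edgeR's TMM adjustment, not to library size alone. Most of the sum was Pax1 (116 CPM), followed by Cdh2 (24.0 CPM), Ca3 (12.4 CPM) and Cd24 (8.82 CPM). Of the keratins in the list, Krt8 averaged at most 5.09 CPM in any group and Krt18 at most 0.120 CPM. Among the chondrocyte-like markers, Acan averaged 6389 CPM and Col2a1 1025 CPM with NPPC-Exo alone. Myh11 and Cspg4, markers of smooth muscle and pericytes, averaged 907 and 812 CPM there. In the same list Pdgfrb averaged 444 CPM, Notch3 25.1 CPM, Des 1.39 CPM and Rgs5 0.745 CPM. The markers of the label were thus mixed, with Pax1 present and the keratins Krt8 and Krt18 low.

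The promoters of 4 members are shown, as the RefSeq table of GRCr8 gives them, from 250 bases before to 50 after the annotated start. Postn had one of the steepest falls with erastin, Col1a2 is the partner of Col1a1, and Col5a1 and Col5a2 are chains of 1 collagen that behaved differently. Capitals mark matches to TATAAA, to CCAAT on either strand and to the GC box, which was searched as GGGCGG. Postn lies at chr2:140677811-140678110 and Col1a2 at chr4:33518307-33518606. Col5a1 lies at chr3:31606630-31606929, also on the plus strand like both of these, and Col5a2 at chr9:55090102-55090401 on the minus strand.
Postn: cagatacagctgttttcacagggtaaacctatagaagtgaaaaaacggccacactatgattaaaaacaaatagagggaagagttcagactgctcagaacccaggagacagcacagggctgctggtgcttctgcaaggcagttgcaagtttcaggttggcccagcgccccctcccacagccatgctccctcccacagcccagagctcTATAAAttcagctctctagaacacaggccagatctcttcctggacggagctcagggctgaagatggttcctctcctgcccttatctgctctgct
Col1a2: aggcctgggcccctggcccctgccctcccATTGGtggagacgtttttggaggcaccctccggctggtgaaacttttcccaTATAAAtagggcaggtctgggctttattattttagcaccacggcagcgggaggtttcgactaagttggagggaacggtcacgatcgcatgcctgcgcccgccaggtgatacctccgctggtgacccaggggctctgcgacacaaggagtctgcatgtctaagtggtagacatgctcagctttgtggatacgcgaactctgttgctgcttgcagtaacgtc
Col5a1: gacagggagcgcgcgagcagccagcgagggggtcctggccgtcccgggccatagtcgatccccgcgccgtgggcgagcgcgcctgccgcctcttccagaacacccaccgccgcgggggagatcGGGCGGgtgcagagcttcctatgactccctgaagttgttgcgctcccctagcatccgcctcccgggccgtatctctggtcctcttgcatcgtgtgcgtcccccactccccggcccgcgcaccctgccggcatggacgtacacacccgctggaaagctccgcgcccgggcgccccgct
Col5a2: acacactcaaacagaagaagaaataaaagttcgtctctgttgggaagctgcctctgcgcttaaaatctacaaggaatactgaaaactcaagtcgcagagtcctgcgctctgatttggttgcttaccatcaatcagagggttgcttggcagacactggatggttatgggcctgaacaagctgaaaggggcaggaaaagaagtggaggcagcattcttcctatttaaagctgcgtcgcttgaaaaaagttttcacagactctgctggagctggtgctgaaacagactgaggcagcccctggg
The table held promoters for 6 of the 10 names, the other 2 being Tnc and Col6a1. TATAAA was found in 3 of the 6 (Postn, Col1a2 and Tnc), against 14.2% of 33469 rat promoters of this length searched on both strands. In Postn it began 44 bases before the annotated start, and in Col1a2 170 bases before it. CCAAT was found only in Col1a2 of the 6 (37.5% of all promoters), and GGGCGG in Col5a1 and Tnc (33.1%). CAGAC, the letters of a SMAD element, was in 4 of the 6 (50.1%), and TGACTCA, those of an AP-1 element, was in Col6a1 alone (4.63%). GGAATG, the letters bound by TEAD factors, was in none of the 6 (14.2%). The Col5a1 promoter had 72.0% G and C and that of Col5a2 47.7%, with a median of 51.7% over all promoters.

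These genes were among the most abundant transcripts of the cells. Together, with both Col1a2 rows, they took 12.5% ± 0.658 of all counts with NPPC-Exo, 11.5% ± 0.542 with miR-Exo, 8.38% ± 0.216 with erastin and NPPC-Exo, and 5.91% ± 0.291 with erastin and miR-Exo (SD, n = 3 each). If reads of Col1a2 were counted in both of its rows, these shares and its CPM are too high. Without Col1a2 the 9 genes took 10.4% ± 0.533, 9.50% ± 0.523, 7.42% ± 0.167 and 5.40% ± 0.177 in the same order. The 4 groups did not overlap in either share except for the pair without erastin. Whether fewer cells of a type or less RNA per cell lay behind a lower level cannot be told apart in bulk libraries.

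Levels per length (FPKM, fragments counted per kilobase of gene and scaled to library size) gave an order of the genes that changed with erastin. With NPPC-Exo alone, mean FPKM were 4391 for Col1a2, 3955 for Col3a1, 3923 for Col1a1 and 3536 for Fn1. Of these 4, Col1a2 (4227 to 4696 FPKM) lay above every library of Col3a1. It lay within the range of Col1a1 (3458 to 4756 FPKM), which also overlapped with Col3a1 and with Fn1. Col5a2 (1449 FPKM), Tnc (1394 FPKM) and Postn (1280 FPKM) followed, with overlap between Col5a2 and Tnc and between Tnc and Postn. Col6a1 (692 FPKM), Col5a1 (399 FPKM) and Col12a1 (271 FPKM) came last, each apart from the next. With erastin and NPPC-Exo, Fn1 led at 3830 FPKM, apart from Col1a1 at 2309 FPKM, and its mean ranked 4 among all genes tested. Postn stood at 231 FPKM and Col12a1 at 51.8 FPKM in that group. With erastin and miR-Exo the order again began with Fn1 (2691 FPKM), followed by Col1a1 (1375 FPKM), Col3a1 (1293 FPKM) and Col1a2 (1091 FPKM), which overlapped. The FPKM of Col1a2 is uncertain, since the table does not show whether reads were split between its 2 rows or counted in both.

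**Figure D1:**
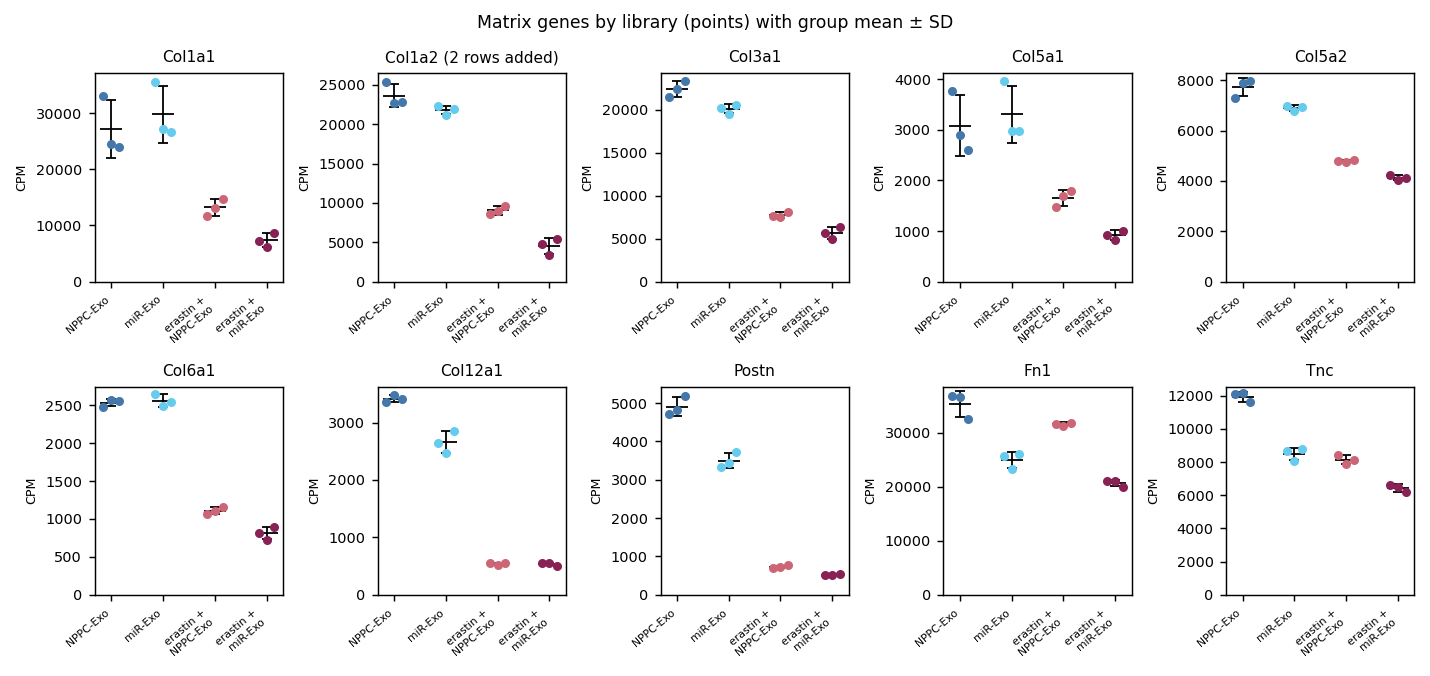
Scaled counts (CPM, y axis from 0) of each gene in the 12 libraries by group, with the group mean and SD as bars. Postn and Col12a1 libraries with erastin all lie far below those without it, while Fn1 libraries with miR-Exo lie below those with NPPC-Exo whether or not erastin was given.

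Erastin was compared with no erastin within each kind of exosome. All 9 genes fell in both comparisons by edgeR's quasi-likelihood test (adjusted p under 0.05 over 15650 genes), although Fn1 turned the other way when counts were scaled by library size alone. Of all genes tested, 22.1% were called lower and 21.5% higher under NPPC-Exo, and 24.4% lower and 24.7% higher under miR-Exo. In CPM the groups with and without erastin did not overlap for any of the 9. A lower group was likewise apart for 26.6% of all genes under NPPC-Exo and 28.1% under miR-Exo. The median log2 fold change of the 9 was -1.04 under NPPC-Exo, against 0.02 for all genes, and -1.84 under miR-Exo, against 0.03. With a fall of at least 2-fold as well, 5 of 9 were called under NPPC-Exo (6.03% of all genes) and 6 of 9 under miR-Exo (8.70%). The fall was steepest for Postn (6.70-fold under NPPC-Exo) and smallest for Fn1.

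Col1a1, the main chain of collagen I, had 33044, 24544 and 23900 CPM with NPPC-Exo and 11731, 13173 and 14637 CPM when erastin was added. With miR-Exo it had 35612, 27210 and 26547 CPM, and with erastin and miR-Exo 7270, 6118 and 8601 CPM. Every library with erastin lay below every library without it, and those with miR-Exo and erastin lay below those with NPPC-Exo and erastin. The fall was 2.06-fold under NPPC-Exo (log2 fold change -1.04 ± 0.15 SE, edgeR adjusted p = 8.12e-05). Under miR-Exo it was 4.06-fold (log2 -2.02 ± 0.16, edgeR adjusted p = 1.86e-07).

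Col1a2, the second chain of collagen I, had 25381, 22706 and 22837 CPM with NPPC-Exo and 8567, 8943 and 9579 CPM with erastin added. It had 22285, 21226 and 21979 CPM with miR-Exo, and 4708, 3422 and 5404 CPM with miR-Exo and erastin. The groups with and without erastin did not overlap. It fell 2.62-fold under NPPC-Exo (log2 -1.39 ± 0.12, edgeR adjusted p = 5.88e-07) and 4.84-fold under miR-Exo (log2 -2.27 ± 0.12, edgeR adjusted p = 5.44e-09). Either row taken alone was called in the same direction in both. The second row held 25.5% of the Col1a2 counts in replicate 2 of erastin with miR-Exo and 37.0% to 46.4% in the other libraries.

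Col3a1, the collagen III chain, had 21450, 22385 and 23334 CPM with NPPC-Exo and 7612, 7510 and 8092 CPM with erastin added. With miR-Exo its 20231, 19541 and 20553 CPM compared with 5690, 4910 and 6303 CPM under erastin. The groups with erastin lay far below those without it and did not overlap with each other either. It fell 2.89-fold under NPPC-Exo (log2 -1.53 ± 0.07, edgeR adjusted p = 1.59e-09) and 3.57-fold under miR-Exo (log2 -1.84 ± 0.07, edgeR adjusted p = 2.51e-10).

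Collagen V was measured through 2 chains. Col5a1 had 3764, 2891 and 2602 CPM with NPPC-Exo and 1482, 1701 and 1783 CPM with erastin added. With miR-Exo it had 3966, 2974 and 2983 CPM, and 915, 813 and 1009 CPM with erastin. Its lowest libraries were those with both erastin and miR-Exo, apart from all others. The log2 fold changes with erastin were -0.90 ± 0.14 under NPPC-Exo (edgeR adjusted p = 0.000151) and -1.86 ± 0.14 under miR-Exo (edgeR adjusted p = 1.93e-07).

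Col5a2 had 7310, 7895 and 7959 CPM with NPPC-Exo and 4790, 4749 and 4826 CPM with erastin added, and 6971, 6764 and 6935 CPM with miR-Exo against 4233, 4034 and 4131 CPM. Its 4 groups were tight and did not overlap. The log2 fold changes with erastin were -0.69 ± 0.04 (edgeR adjusted p = 6.28e-09) and -0.74 ± 0.04 (edgeR adjusted p = 2.81e-09), 2 values that lie 0.05 apart.

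Col6a1, a chain of the pericellular collagen VI, had 2478, 2566 and 2554 CPM with NPPC-Exo and 1066, 1101 and 1156 CPM with erastin added. With miR-Exo it had 2649, 2483 and 2539 CPM, and 821, 725 and 895 CPM with erastin. The groups without erastin overlapped with each other, and the 2 groups with it did not. The log2 fold changes with erastin were -1.19 ± 0.06 (edgeR adjusted p = 5.74e-09) and -1.65 ± 0.06 (edgeR adjusted p = 2.37e-10).

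Col12a1 and Postn had the steepest falls. Col12a1, which lies on the fibril surface, had 3356, 3479 and 3405 CPM with NPPC-Exo and 2650, 2465 and 2847 CPM with miR-Exo. With erastin it had 547, 521 and 547 CPM under NPPC-Exo and 555, 548 and 509 CPM under miR-Exo. The 6 libraries with erastin were thus at one level whichever exosome was given, a 6.34-fold and a 4.94-fold fall (edgeR adjusted p = 1.82e-12 and 2.90e-12, SE 0.06 and 0.05 on the log2 scale).

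Postn, the periostin gene, had 4716, 4815 and 5196 CPM with NPPC-Exo and 3339, 3433 and 3729 CPM with miR-Exo. It had 706, 724 and 768 CPM with erastin and NPPC-Exo, and 520, 526 and 539 CPM with erastin and miR-Exo. Its 4 groups did not overlap, and the fall with erastin was 6.70-fold under NPPC-Exo and 6.63-fold under miR-Exo (edgeR adjusted p = 1.50e-12 and 1.01e-12, SE 0.05 on the log2 scale in both).

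Fn1 and Tnc, which organise the matrix between fibrils and cells, fell least. Fn1 had 36787, 36546 and 32611 CPM with NPPC-Exo and 31643, 31187 and 31861 CPM with erastin added, and 25724, 23215 and 26007 CPM with miR-Exo against 21094, 21012 and 19950 CPM. The log2 fold change with erastin was -0.16 ± 0.05 under NPPC-Exo (edgeR adjusted p = 0.0196) and -0.27 ± 0.05 under miR-Exo (edgeR adjusted p = 0.000589). Under NPPC-Exo the call was lost (edgeR adjusted p from 0.0603 to 0.0914) without replicate 1 or 2 of NPPC-Exo or without any 1 of the 3 libraries of erastin with NPPC-Exo. Its direction also turned when counts were scaled by library size alone, to 0.12 under NPPC-Exo (edgeR adjusted p = 0.0412) and 0.03 under miR-Exo (edgeR adjusted p = 0.559). That scaling moved the median of all genes to 0.30 and 0.33. Relative to the median of all genes, Fn1 was at -0.18 and -0.30 under either scaling. A change of scaling shifts all genes nearly alike, so this agreement was fixed in advance and does not decide the direction of Fn1.

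Tnc had 12097, 12143 and 11594 CPM with NPPC-Exo, 8444, 7876 and 8128 CPM with erastin added, 8660, 8070 and 8770 CPM with miR-Exo and 6635, 6488 and 6188 CPM with erastin and miR-Exo. Libraries with erastin lay below those with the same exosome without it. The log2 fold changes were -0.55 ± 0.04 (edgeR adjusted p = 1.81e-07) and -0.40 ± 0.04 (edgeR adjusted p = 3.60e-06). Under library size alone they were -0.27 and -0.10.

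Ratios between genes in a library do not depend on the scaling of libraries. The FPKM of Fn1 was 0.771, 1.03 and 0.946 times that of Col1a1 with NPPC-Exo, and 1.87, 1.64 and 1.51 times with erastin added. With miR-Exo the ratio was 0.501, 0.591 and 0.679, and with erastin and miR-Exo 2.01, 2.38 and 1.61. Fn1 was thus below or near Col1a1 without erastin and above it in all 6 libraries with erastin. The ratio of Tnc to Postn averaged 1.09 ± 0.081 with NPPC-Exo and 1.09 ± 0.063 with miR-Exo, and 4.99 ± 0.32 and 5.46 ± 0.29 with erastin (SD, n = 3 each).

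**Figure D2:**
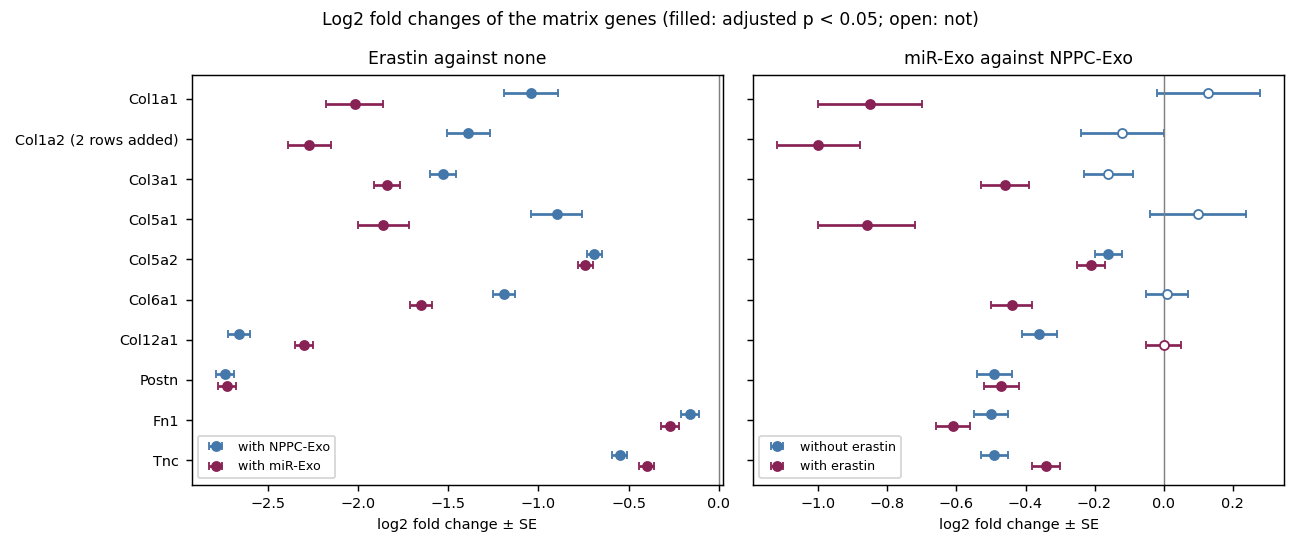
Log2 fold changes with their SE (x axis) for each gene, erastin against none on the left and miR-Exo against NPPC-Exo on the right, with filled points for adjusted p under 0.05. With erastin, Postn and Col12a1 lie farthest to the left and Fn1 nearest to 0, and the pairs of points of Col1a1, Col1a2 and Col5a1 lie farthest apart.

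Summed levels of the marker lists also differed with erastin, and their part in these falls was not tested. The 10 nucleus pulposus and notochord markers in the table summed to 159 to 174 CPM with NPPC-Exo and 153 to 167 CPM with miR-Exo. With erastin added they summed to 83.3 to 87.4 and 72.6 to 82.5 CPM. Within this list Pax1 fell and Cd24 rose under either exosome. The summed level of the 6 pericyte and smooth muscle markers was 2163 to 2206 CPM with NPPC-Exo and 2010 to 2178 CPM with miR-Exo. Erastin libraries had 455 to 474 CPM under NPPC-Exo and 390 to 412 CPM under miR-Exo. Myh11 and Cspg4 made up most of the sum without erastin, and Des was not called with erastin under either exosome. The 10 chondrocyte-like markers summed to 7540 to 8524 and 7428 to 8921 CPM without erastin, and to 1245 to 1387 and 936 to 1020 CPM with it. Acan made up most of these sums, and Sox5, Sox6 and Matn3, all at low levels, were not called with erastin under NPPC-Exo. Under miR-Exo Sox5 rose with erastin (log2 0.71 ± 0.16, edgeR adjusted p = 0.00243). The 7 annulus and tendon markers summed to 416 to 455 CPM with NPPC-Exo and to 146 to 156 CPM with erastin added. With miR-Exo they summed to 399 to 427 CPM, and with miR-Exo and erastin to 142 to 152 CPM. In this list Kera and Chad were at or near 0 in all groups and Fmod made up most of the sum. The 8 macrophage and leukocyte markers in the table summed to 7.74 to 9.69 CPM with NPPC-Exo and to 22.6 to 29.9 CPM with erastin and miR-Exo, mostly Cd14, with Aif1 and Adgre1 at or near 0. The 4 endothelial markers in the table summed to at most 3.78 CPM.

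miR-Exo was compared with NPPC-Exo to ask what differs between the kinds of exosome. Other effects of the overexpression on the progenitor cells and their exosomes cannot be told apart from miR-221-3p itself. Without erastin, 5 of the 9 genes were lower with miR-Exo by edgeR's test, where 6.52% of all genes were called lower. They were Postn, Fn1, Tnc, Col12a1 and Col5a2, and none of the 9 was higher (4.15% of all genes). The median log2 fold change was -0.16 for the 9 and 0.00 for all genes. The 3 glycoproteins were 28.7% (Postn), 29.3% (Fn1) and 28.8% (Tnc) below their level with NPPC-Exo (edgeR adjusted p = 7.86e-05, 6.27e-05 and 1.50e-05), and these 3 remained called in each alternative run.

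The fibril chains had smaller differences. Col12a1 fell by 0.36 ± 0.05 on the log2 scale (edgeR adjusted p = 0.000741) and Col5a2 by 0.16 ± 0.04 (edgeR adjusted p = 0.013). The call of Col5a2 was lost without replicate 2 of NPPC-Exo (edgeR adjusted p = 0.0647), without replicate 2 of miR-Exo (edgeR adjusted p = 0.0535) and with library size alone (log2 -0.08, edgeR adjusted p = 0.141). Col3a1 had a log2 fold change of -0.16 ± 0.07 (edgeR adjusted p = 0.183), although its 2 groups did not overlap. In all, 6 of 9 genes had lower groups that did not overlap, against 15.8% of genes tested. Col1a1 had a log2 fold change of 0.13 ± 0.15, Col5a1 of 0.10 ± 0.14 and Col6a1 of 0.01 ± 0.06, with overlapping groups and approximate 95% intervals from -0.16 to 0.43, from -0.17 to 0.37 and from -0.11 to 0.14.

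Replicates of the same number deviated together in these 2 groups, so the comparison was also fitted with the replicate number as a block. With the block in the fit of all 4 groups, 5 of the 9 were called, as without it, and neither Col1a1 (log2 0.13, edgeR adjusted p = 0.61) nor Col3a1 (-0.15, edgeR adjusted p = 0.1) was. In the 2 groups alone without the block Col3a1 was called (-0.14, edgeR adjusted p = 0.0428) and Col1a1 was not (edgeR adjusted p = 0.62). A block in the fit of the 2 groups alone, a setting added after the data were seen, called 7 of the 9, with Col1a1 higher by 0.15 ± 0.02 on the log2 scale (edgeR adjusted p = 0.0136) and Col3a1 lower (log2 -0.14 ± 0.03, edgeR adjusted p = 0.0224). Col1a1 was 35612 against 33044, 27210 against 24544 and 26547 against 23900 CPM in the same-numbered pairs of miR-Exo and NPPC-Exo. All 3 of these pairs were higher with miR-Exo, but the pairing was read from these same data and not from the labels. In the main fit, without pairing, Col1a1 was not called (log2 0.13 ± 0.15, edgeR adjusted p = 0.638). Its log2 fold change was -0.01 without replicate 1 of miR-Exo, so its direction is not settled.

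With erastin, 8 of the 9 genes were lower with miR-Exo than with NPPC-Exo and none was higher, where 15.8% of all genes were called lower and 15.6% higher. The same 8 had groups that did not overlap, against 23.4% of genes tested. The median log2 fold change of the 9 was -0.46, against 0.01 for all genes. The largest differences were in the chains that had not been called without erastin. Col5a1 was 44.9% lower (log2 -0.86 ± 0.14, edgeR adjusted p = 0.000505) and Col1a1 44.4% lower (log2 -0.85 ± 0.15, edgeR adjusted p = 0.000964). Col1a2 was 50.0% lower (SE of the log2 fold change 0.12, edgeR adjusted p = 4.21e-05).

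Col3a1 (log2 -0.46 ± 0.07, edgeR adjusted p = 0.000304) and Col6a1 (log2 -0.44 ± 0.06, edgeR adjusted p = 0.00017) came next among the collagens, and Col5a2 had the smallest called difference (log2 -0.21 ± 0.04, edgeR adjusted p = 0.000778). Of the glycoproteins, Fn1 was 34.5% lower (log2 -0.61 ± 0.05, edgeR adjusted p = 2.31e-06), Postn 27.9% lower (log2 -0.47 ± 0.05, edgeR adjusted p = 2.11e-05) and Tnc 21.0% lower (log2 -0.34 ± 0.04, edgeR adjusted p = 5.90e-05). Col12a1 was the exception, with a log2 fold change of -0.00 ± 0.05 (edgeR adjusted p = 0.975) and an approximate 95% interval from -0.10 to 0.10.

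The interaction asks whether the effect of erastin differed between the kinds of exosome. It shares its libraries with the comparisons above. It was called for 4 of the 9 genes, where 12.8% of all genes were called in either direction. In 3 the fall with erastin was larger under miR-Exo (7.01% of all genes had a lower interaction). They were Col1a1 (log2 -0.98 ± 0.21, edgeR adjusted p = 0.0109), Col5a1 (-0.96 ± 0.20, edgeR adjusted p = 0.00854) and Col6a1 (-0.46 ± 0.09, edgeR adjusted p = 0.00624), and Col1a2 differed likewise (-0.89 ± 0.17, edgeR adjusted p = 0.00524). In Col12a1 the fall was smaller under miR-Exo (0.36 ± 0.07, edgeR adjusted p = 0.00822), where 5.81% of all genes had a higher interaction. All these calls held in each alternative run.

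For Postn the difference was 0.02 ± 0.07 (edgeR adjusted p = 0.92), with an approximate 95% interval from -0.12 to 0.16. For Fn1 it was -0.11 ± 0.07 (edgeR adjusted p = 0.352), for Tnc 0.15 ± 0.06 (edgeR adjusted p = 0.116) and for Col5a2 -0.05 ± 0.05 (edgeR adjusted p = 0.612). Col3a1 lay close to the threshold at -0.30 ± 0.10 (edgeR adjusted p = 0.0617). It was called when replicate 2 of erastin with miR-Exo was left out (-0.24, edgeR adjusted p = 0.0474) and when replicate 3 was (-0.42, edgeR adjusted p = 0.00455), with the replicate block (-0.31, edgeR adjusted p = 0.0265) and by DESeq2 (-0.31, adjusted p = 0.0214). The Tnc interaction was called with library size alone (0.17, edgeR adjusted p = 0.0479).

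The ratios between chains of 1 collagen were compared within libraries. The FPKM of Col5a1 was 0.36, 0.25 and 0.23 times that of Col5a2 with NPPC-Exo and 0.39, 0.30 and 0.30 times with miR-Exo. It was 0.21, 0.25 and 0.25 times with erastin and NPPC-Exo, and 0.15, 0.14 and 0.17 times with erastin and miR-Exo. The last group lay below all other libraries. The log2 ratio differed by -1.11 ± 0.15 for erastin under miR-Exo and by -0.65 ± 0.11 between exosomes with erastin. In each case the two-sided exact permutation p was 0.10, the smallest that 3 against 3 allows, and 0.15 after adjustment over 16 tests, so none of these ratio tests could pass 0.05.

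For collagen VI, the FPKM of Col6a1 was 3.84, 3.80 and 4.08 times that of its partner chain Col6a3 with NPPC-Exo and 7.77, 8.57 and 8.24 times with erastin added. It was 3.58, 3.68 and 3.56 times with miR-Exo and 11.71, 11.09 and 12.35 times with erastin and miR-Exo. Col6a3 itself, found like Col1a2 by its description, fell in both comparisons (log2 -2.26 ± 0.05 under NPPC-Exo and -3.35 ± 0.06 under miR-Exo). The ratio of Col6a1 to Col6a2, the other partner chain, averaged 1.73 ± 0.12, 1.69 ± 0.07 and 1.46 ± 0.08 (SD, n = 3) with NPPC-Exo, miR-Exo and erastin with NPPC-Exo. It was 1.99, 2.09 and 1.79 in the libraries of erastin with miR-Exo. It was thus lower with erastin under NPPC-Exo and higher with erastin under miR-Exo, in each case with groups that did not overlap (log2 -0.24 ± 0.07 and 0.21 ± 0.08, exact permutation p = 0.10 for both, the smallest possible). The ratio of Col1a1 to Col1a2 averaged 0.89 ± 0.11, 1.06 ± 0.16, 1.13 ± 0.06 and 1.27 ± 0.10 (SD, n = 3) with NPPC-Exo, miR-Exo, erastin with NPPC-Exo and erastin with miR-Exo. It is uncertain for the reason given above for Col1a2, and with the first Col1a2 row alone the group means were 1.59, 1.91, 1.88 and 1.93 in that order. With the second row alone they were 2.01, 2.38, 2.85 and 3.98, and the groups with and without erastin did not overlap under either exosome.

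**Figure D3:**
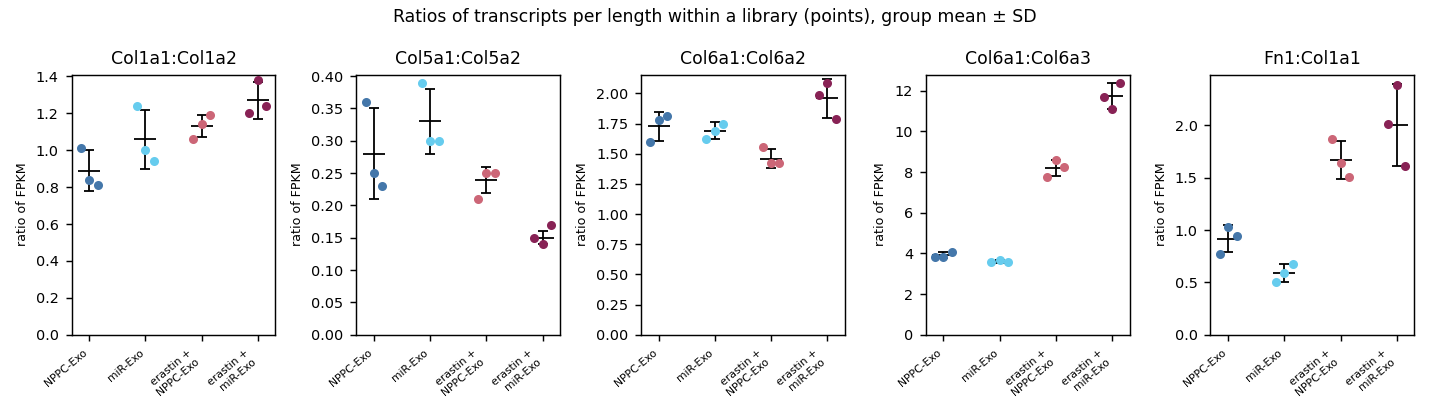
Ratios of FPKM within each of the 12 libraries by group, with the group mean and SD as bars and y axes from 0. Col5a1 to Col5a2 is lowest with erastin and miR-Exo (0.15 ± 0.01), Col6a1 to Col6a3 is highest there (11.72 ± 0.63), and Fn1 to Col1a1 is above 1.5 in all libraries with erastin.

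Within groups, Col1a1 and Col5a1 varied more than the other members and varied together. The pooled SD of log2 CPM was 0.23 for Col1a1, 0.21 for Col5a1 and 0.18 for Col1a2, against a median of 0.07 and a 95th percentile of 0.18 over 1818 genes with at least 100 CPM. It was 0.04 to 0.10 for the other 7. Replicate 1 of NPPC-Exo lay 0.30 above its group mean for both Col1a1 and Col5a1, and replicate 1 of miR-Exo 0.27 and 0.28 above. Replicate 2 of erastin with miR-Exo was the lowest of its group for Col1a1 (-0.25), Col1a2 (-0.37), Col3a1 (-0.19), Col5a1 (-0.16) and Col6a1 (-0.16). In the glycoproteins no library deviated by more than 0.11 on the log2 scale. The ratio of Col5a1 to Col1a1 varied little, with group means of 0.102, 0.0994, 0.113 and 0.112 in the order above.

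**Figure D4:**
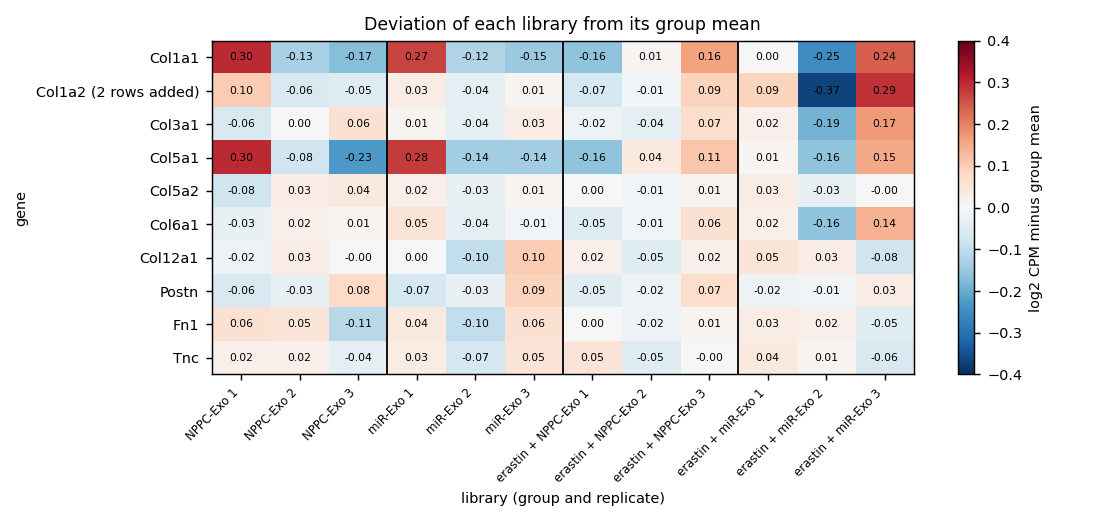
Log2 CPM of each gene minus its group mean (colour and number) in the 12 libraries, with lines between groups. Replicate 1 of NPPC-Exo and of miR-Exo is high for Col1a1 and Col5a1 (0.27 to 0.30), and replicate 2 of erastin with miR-Exo is low for 5 collagen chains.

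Over the 12 libraries the members fell into patterns by the root mean square difference of their centred log2 CPM. The closest pair was Col1a1 and Col5a1 (0.09), followed by Col3a1 and Col6a1 (0.15), Fn1 and Tnc (0.16), Col5a2 and Tnc (0.18), Col5a1 and Col6a1 (0.21), and Col12a1 and Postn level with Col1a1 and Col6a1 (0.22 each). Postn and Fn1 were the farthest apart (1.26). Among 10258 other genes searched, those closest to Col1a1 were Atf5 (0.11), Col6a2 (0.12) and Smtn (0.13), and those closest to Col5a1 were Sema3f (0.10), Col6a2 (0.11) and Smtn (0.12). Col3a1 was closest to Col9a1 (0.08), a chain of a cartilage collagen, and Col6a1 to Tpst2 (0.09). Col5a2 was closest to Rcn1 (0.04), Plod3 (0.05), which hydroxylates collagen lysines, and Calu (0.05). Postn was closest to Fbln5 (0.10), an elastic fibre protein, and Adamtsl3 (0.13), and Col12a1 to Itgbl1 (0.10) and Mcam (0.12). Fn1 was closest to Hyou1 (0.07), a chaperone of the endoplasmic reticulum, and Tnc to Ankrd50 (0.04). These are descriptions over libraries that share 4 groups.

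Genes that serve these proteins were counted in lists by role, with the median log2 fold change of all genes at 0.02 under NPPC-Exo and 0.03 under miR-Exo. The shares of all genes called lower and higher with erastin were again 22.1% and 21.5% under NPPC-Exo, and 24.4% and 24.7% under miR-Exo. Of 11 partner and related collagen chains tested, 9 fell and 1 rose with erastin under either exosome, with medians of -1.37 and -1.86. Col8a1, a chain of a network collagen, fell by 2.08 ± 0.06 and 2.21 ± 0.06 on the log2 scale. Col14a1, related to Col12a1, was higher with miR-Exo than with NPPC-Exo under erastin (log2 0.58 ± 0.05, edgeR adjusted p = 3.23e-06).

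The enzymes and chaperones that modify, fold and export collagen fell nearly throughout. Of 19 tested, 18 fell and 1 rose with erastin under NPPC-Exo (median -0.75), and 16 fell and 1 rose under miR-Exo (median -0.65). Plod1 and Plod2, lysyl hydroxylases, fell by 1.06 ± 0.05 and 1.02 ± 0.05 under NPPC-Exo. Serpinh1, the collagen chaperone HSP47, fell by 1.46 ± 0.10 under miR-Exo, and its fall was larger there than under NPPC-Exo (interaction -0.78 ± 0.13, edgeR adjusted p = 0.0034). Plod2 was the reverse (interaction 0.49 ± 0.07, edgeR adjusted p = 0.00169).

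Of 16 genes for propeptide removal, cross-linking and fibril assembly, 10 fell and 3 rose with erastin under NPPC-Exo (median -0.54), and 11 fell and 4 rose under miR-Exo (median -0.78). Fmod, a proteoglycan that guides fibril growth, fell by 1.48 ± 0.06 and 1.38 ± 0.06, and Sparc, a collagen-binding glycoprotein, by 1.02 ± 0.04 and 1.05 ± 0.04. The fibril-binding proteoglycans Lum and Dcn went the other way with erastin and miR-Exo. Lum averaged 110, 101, 87.7 and 329 CPM with NPPC-Exo, miR-Exo, erastin with NPPC-Exo and erastin with miR-Exo, and Dcn 3.56, 4.71, 3.76 and 26.8 CPM. Their log2 fold changes of miR-Exo against NPPC-Exo under erastin were 1.91 ± 0.08 (edgeR adjusted p = 1.34e-08) and 2.83 ± 0.18 (edgeR adjusted p = 2.28e-07).

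Of 26 other matricellular and elastic fibre proteins, 20 fell with erastin under either exosome, 5 rose under NPPC-Exo and 4 under miR-Exo, with medians of -0.71 and -1.03. Ccn2, a matricellular growth factor modulator, fell by 1.38 ± 0.04 under miR-Exo, and Thbs1 was lower with miR-Exo without erastin (-0.53 ± 0.06, edgeR adjusted p = 8.08e-05) and with it (edgeR adjusted p = 1.41e-07). In the same list Tnn was higher with miR-Exo without erastin (0.57 ± 0.06, edgeR adjusted p = 4.50e-05) and with it (0.84 ± 0.06, edgeR adjusted p = 3.38e-07). Of 19 receptors for these proteins, 10 fell and 3 rose under NPPC-Exo and 8 fell and 3 rose under miR-Exo, with medians of -0.32 and -0.11. Itga11, the alpha chain of a collagen receptor of fibroblasts, fell by 1.66 ± 0.06 and 1.86 ± 0.06. Itgb1, the beta chain shared by fibronectin and collagen receptors, was lower with miR-Exo without erastin (-0.38 ± 0.04, edgeR adjusted p = 0.000101) and with it (-0.67 ± 0.04, edgeR adjusted p = 2.28e-07). Itga8 went the other way, higher with miR-Exo without erastin (0.81 ± 0.05, edgeR adjusted p = 1.19e-06) and with it (0.61 ± 0.05, edgeR adjusted p = 1.70e-06).

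Of 18 target genes of TGF-beta, SMAD and YAP, 9 fell and 3 rose with erastin under NPPC-Exo (median -0.40), and 13 fell and 2 rose under miR-Exo (median -0.70). Acta2, smooth muscle actin, fell by 1.58 ± 0.06 and 2.22 ± 0.06, with an interaction of -0.64 ± 0.08 (edgeR adjusted p = 0.000709). Of 24 ligands, receptors, SMADs and collagen gene regulators, 9 fell and 5 rose under NPPC-Exo (median -0.06) and 12 fell and 5 rose under miR-Exo (median -0.31), so that the share that rose was near that of all genes (21.5% and 24.7%). Tgfb3 had log2 fold changes of -3.50 ± 0.13 and -3.81 ± 0.13 and Tgfb2 of -1.40 ± 0.07 and -1.94 ± 0.07, while Smad3, which carries the signal to the nucleus, rose by 0.81 ± 0.07 and 1.06 ± 0.07. Yap1 was lower with miR-Exo than with NPPC-Exo under erastin (-0.65 ± 0.05, edgeR adjusted p = 2.32e-06).

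Collagen breakdown genes were divided. Of 11 tested, 5 rose and 3 fell with erastin under NPPC-Exo (median 0.23), and 4 rose and 2 fell under miR-Exo (median -0.02). The share that fell was near that of all genes (22.1% and 24.4%), and 21.5% and 24.7% of all genes rose. The 3 with the smallest adjusted p rose steeply. Mmp3, the matrix protease stromelysin, averaged 1.65 and 1.77 CPM with NPPC-Exo and miR-Exo, and 150 and 206 CPM when erastin was added. The collagenase gene Mmp13 averaged 3.13 and 1.53 CPM without erastin and 92.6 and 118 CPM with it, and the gelatinase gene Mmp9 1.69 and 1.51 CPM without it and 104 and 78.5 CPM with it.

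The same lists were counted for miR-Exo against NPPC-Exo, where 6.52% of all genes were lower and 4.15% higher without erastin, and 15.8% lower and 15.6% higher with it. Of 11 partner chains, 1 was lower and 1 higher without erastin, and 6 were lower and 1 higher with it. Of 19 modification genes, 9 were lower and 0 higher without erastin, and 7 were lower and 3 higher with it. Of 16 assembly genes the counts were 4 lower and 1 higher without erastin, and 9 lower and 4 higher with it. Of 26 matricellular genes, 7 were lower and 3 higher without erastin, and 14 were lower and 4 higher with it. Receptors, 19 in all, had 5 lower and 1 higher without erastin, and 7 lower and 6 higher with it. The 18 target genes had 6 lower and 1 higher without erastin, and 12 lower and 1 higher with it. Among 24 regulators, 5 were lower and 0 higher without erastin, and 11 were lower and 1 higher with it. The 11 breakdown genes had 1 lower and 0 higher without erastin, and 1 lower and 5 higher with it.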

How the data were processed

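RNA of 12 libraries (4 groups of 3) was sequenced as strand-marked total RNA libraries, per the labels' protocols. The authors deposited raw counts per gene and, in the same table, FPKM rounded to 2 decimals. StringTie and the build mRatBN7.2 are named in the submitters' processing notes, and no aligner or counting tool is named there. Table coordinates reach 282702424 on chromosome 1, past the end of that chromosome in mRatBN7.2. The build of the coordinates is therefore uncertain and none are printed. Of counts from 1 to 20, 57.3% were even.

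Counts were fitted with edgeR 4.0.16 in R 4.3.3 (filterByExpr, 15650 genes kept, TMM scaling, quasi-likelihood test on the means of 4 groups). The p-values were adjusted by Benjamini and Hochberg over all genes tested, with a threshold of 0.05, and SE are the fold change divided by the root of F. CPM use TMM-scaled totals. Approximate 95% intervals are from these SE. The 2 Col1a2 rows were added in a parallel fit after the data were seen. Ratios of FPKM were tested by two-sided exact permutation over libraries. Depth was 54616827 to 68865720 counts per library, and no member was near the limit of detection.

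The members and lists were chosen with earlier results of these data known. The genes named are all members, up to 3 genes per list and comparison with the smallest adjusted p, and the 3 genes nearest to each member by pattern, of which some are left out. Levels given for marker genes, and Mmp3, Mmp9, Mmp13, Lum and Dcn, follow the same lists. Same-numbered libraries of NPPC-Exo and miR-Exo deviated together (correlations 0.41, 0.22 and 0.13 over 10162 genes), so the numbers were taken to pair these 2 groups. This comes from the data and not from the labels, and no other pair of groups passed the threshold of 0.1 for every number. Correlations between libraries of different number are not given here. The alternatives were other scaling, filters, DESeq2 1.42.0, limma 3.58.1 on log2(FPKM + 1) and log2(FPKM + 0.1), halved counts, the replicate number as a block, fits of the 2 groups alone, and omission of 1 library at a time.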

Additional observations from a re-analysis of the deposited data

Results flagged for a closer look

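The change with erastin differed between miR-Exo and NPPC-Exo, by the interaction term of the edgeR fit, for 4 of the 9 genes and for Col1a2. The log2 difference was -0.98 for Col1a1, which averaged 27163 CPM with NPPC-Exo, 29790 CPM with miR-Exo, 13180 CPM with erastin and NPPC-Exo and 7330 CPM with erastin and miR-Exo. It was -0.96 for Col5a1, with means of 3086, 3308, 1655 and 913 CPM in the same order. It was -0.89 for Col1a2 with its 2 rows added (23641, 21830, 9030 and 4511 CPM). For Col6a1 it was -0.46 (2533, 2557, 1108 and 814 CPM). In Col12a1 the sign was the other way, 0.36, with means of 3413, 2654, 538 and 537 CPM. Groups of 3 libraries were too small to be searched for single libraries that stand apart.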

How the results depend on the processing

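Of 1110 values of the genes under an alternative, 1066 kept direction and side of the threshold, 14 lost their call, 8 gained one and 22 changed sign. Fn1 with erastin turned to 0.12 under NPPC-Exo and 0.03 under miR-Exo with library size alone and with limma at either pseudocount. Col12a1 for miR-Exo under erastin turned to 0.10 in the same 3 settings. The limma runs used FPKM, which are scaled to library size, so these 3 settings share 1 scaling. Library size alone raised the share of higher calls from 49.3% to 77.8% and from 50.4% to 76.4% for erastin under NPPC-Exo and miR-Exo, from 38.9% to 68.7% between exosomes without erastin and from 49.7% to 68.6% with it. Leaving out 1 library gave log2 values from -0.01 to 0.30 for Col1a1, -0.05 to 0.27 for Col5a1 and -0.01 to 0.03 for Col6a1 between exosomes without erastin. It gave -0.05 to 0.01 for Col12a1 between exosomes with erastin, and -0.04 to 0.06 for the Postn interaction. None of these 5 was called in the main result, and the cause of each change was not tested.

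Leaving out 1 library, the genes called ran from 970 to 1854 for miR-Exo against NPPC-Exo without erastin (1669 with all) and from 1205 to 2419 for the interaction (2006 with all), with fewer libraries in each. The lowest counts came without replicate 2 of NPPC-Exo and without replicate 3 of erastin with NPPC-Exo. Tnc with erastin under miR-Exo lost its call with limma at both pseudocounts (-0.10), as did Col5a2 for both exosome comparisons (-0.08 and -0.11). Library size alone gave the same log2 values. With the replicate block over the 4 groups, 9, 9, 5, 8 and 5 of the 9 genes were called for erastin under NPPC-Exo, under miR-Exo, between exosomes without and with erastin, and for the interaction. The fifth interaction gene was Col3a1 (-0.31, edgeR adjusted p = 0.0265). The replicate block in the fit of the 2 groups without erastin called 1501 genes. Dividing counts by gene length was not run, since lengths are known only through the FPKM.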
